A study of Mus musculus with 6 samples.

Results

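Metallothioneins and zinc transporters were examined as 10 genes of the 36047 in the table: the metallothioneins Mt1 and Mt2, the transcription factor Mtf1, the exporters Slc30a1, Slc30a4 and Slc30a5, and the importers Slc39a1, Slc39a8, Slc39a10 and Slc39a14. They were chosen by name as a readout of a metal response to smoke, and every one of them was abundant enough to be tested. RNA-seq of polyA RNA was done on wild-type MLE-12 cells, an epithelial line from mouse lung transformed by the large T antigen of SV40. All cultures were treated at a density of 30% and collected after 24 h. The CSE group (3 libraries) received cigarette smoke extract at 5% with an optical density of 2.0, and the PBS group (3 libraries) received the same volume of phosphate-buffered saline. Metal content of the extract and of the medium was not part of the data.

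Metallothioneins are small cysteine-rich proteins that bind zinc, copper and cadmium. Free zinc in the cell is sensed by MTF1, a zinc finger factor that binds short metal response elements and, in mouse cells, switches on Mt1, Mt2 and the exporter gene Slc30a1 when zinc or cadmium is in excess, while it lowers the importer gene Slc39a10. Proteins of the SLC30 family (ZnT) move zinc out of the cytosol, into organelles or out of the cell, and those of the SLC39 family (ZIP) move it into the cytosol. Tobacco smoke carries cadmium, and SLC39A8 and SLC39A14 can take cadmium into cells along with zinc and manganese.

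Annotated promoter windows of genes on which a metal response would act are shown first, searched for the element that MTF1 reads. The core of the element was searched as TGCACNC or TGCGCNC on both strands of RefSeq promoter windows (GRCm38.p6), each from 250 bases before to 50 bases after a gene's start. Capitals mark the matches.
Mt1, chr8:94178839-94179138, plus strand: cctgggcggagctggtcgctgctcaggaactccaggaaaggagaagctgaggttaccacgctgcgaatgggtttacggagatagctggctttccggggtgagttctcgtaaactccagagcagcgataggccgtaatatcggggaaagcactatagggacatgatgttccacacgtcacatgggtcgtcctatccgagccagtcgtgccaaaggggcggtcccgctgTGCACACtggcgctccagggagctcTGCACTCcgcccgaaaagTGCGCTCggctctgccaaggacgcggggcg
Mt2, chr8:94172368-94172667, plus strand: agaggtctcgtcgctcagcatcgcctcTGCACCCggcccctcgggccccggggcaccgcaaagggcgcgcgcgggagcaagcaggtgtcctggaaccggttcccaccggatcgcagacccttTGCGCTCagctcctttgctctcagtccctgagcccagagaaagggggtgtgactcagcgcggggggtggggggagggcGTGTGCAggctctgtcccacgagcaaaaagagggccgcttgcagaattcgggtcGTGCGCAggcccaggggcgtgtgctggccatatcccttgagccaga
Slc30a1, chr1:191906531-191906830, plus strand: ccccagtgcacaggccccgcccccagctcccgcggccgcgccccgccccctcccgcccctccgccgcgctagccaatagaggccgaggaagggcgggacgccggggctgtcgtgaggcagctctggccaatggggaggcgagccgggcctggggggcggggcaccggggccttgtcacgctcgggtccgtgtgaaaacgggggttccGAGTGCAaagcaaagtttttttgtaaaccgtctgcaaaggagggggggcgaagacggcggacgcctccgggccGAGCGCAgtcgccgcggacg
The Mt1 window held 3 matches, the Mt2 window 4 and the Slc30a1 window 2. Of all 32851 windows, 25.7% held at least 1 match, 7.11% at least 2, 1.97% at least 3 and 0.518% at least 4. A match is a stretch of letters and not a site shown to be bound.

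RefSeq held windows for 9 of the 10 genes. The window of Slc30a4 held 3 matches, that of Slc30a5 and the downstream one of the pair for Slc39a8 held 1 each, and those of Mtf1, Slc39a1 and Slc39a10 held 0. The core of the antioxidant response element read by NRF2 was searched as TGACNNNGC. It matched once in the window of Mt2 and not in that of Mt1. The windows of Slc30a1, Slc30a5 and Slc39a1 and the upstream one for Slc39a8 also held 1 match each. Those of Mtf1, Slc30a4 and Slc39a10 held 0. Of all windows, 12.4% held at least 1 match. The core of the AhR element, GCGTG, matched once in Mt1, at 2 places in Mt2 and at 3 places in Slc30a4. It matched once each in Slc30a1, Slc30a5 and the downstream window for Slc39a8, and not in Mtf1, Slc39a1 or Slc39a10. For this core, 32.4% of all windows held at least 1 match, 11.1% at least 2 and 3.9% at least 3.

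None of the 10 genes passed the test for a change with smoke extract. That holds for Mt1 and Mt2, for Mtf1 itself and for the exporter gene Slc30a1, the other classical MTF1 target. With the quasi-likelihood test of edgeR, adjusted by Benjamini-Hochberg over 13451 tested genes, 0 of the 10 reached an adjusted p of 0.05, whereas 12.0% of all tested genes did (4.64% higher and 7.36% lower). At an unadjusted p under 0.05 there was 1 of the 10, Slc30a4, against 25.7% of all tested genes, and both DESeq2 and limma-voom called 0. The median log2 fold change of the 10 genes was −0.0054 and that of all tested genes 0.0056. Their median absolute log2 fold change was 0.10, against 0.16 over all tested genes. Removing each library's trend with GC content and transcript length was the only setting tried that gave a call, for Slc30a4.

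**Figure D1:**
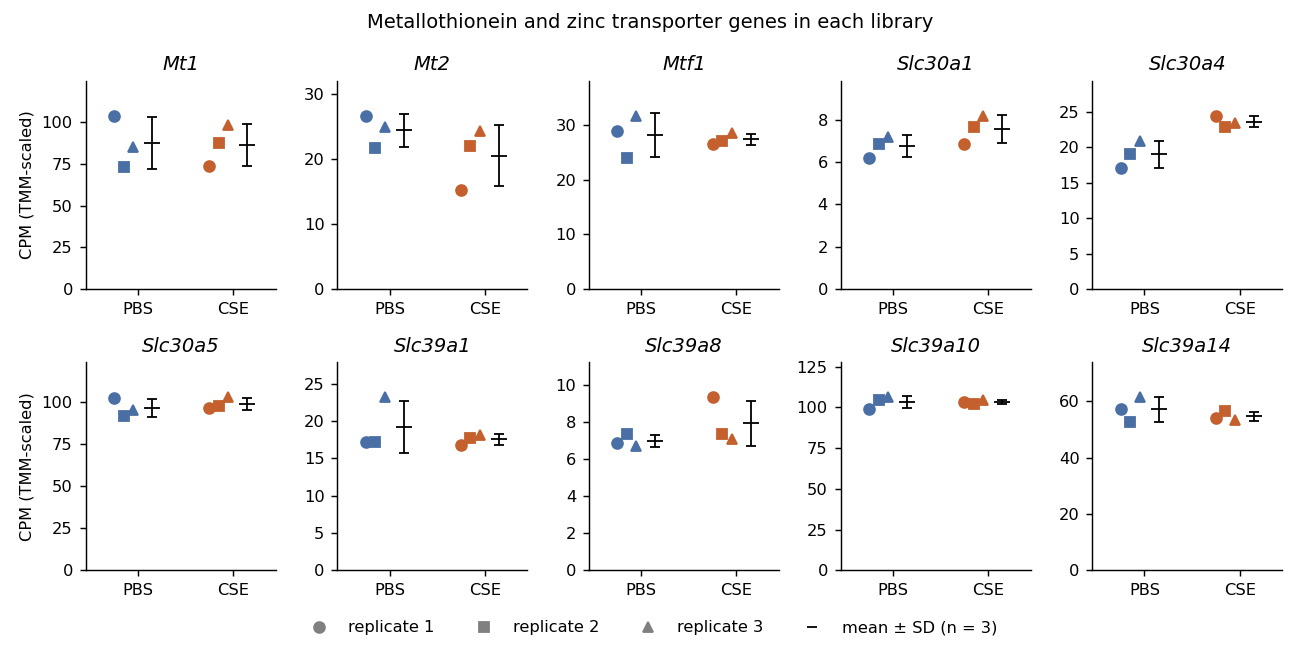
CPM (TMM-scaled) of the 10 genes in each library, with PBS in blue and CSE in orange, marker shapes for the replicate number and black bars for the mean ± SD of 3 libraries. Slc30a4 is the only panel in which the 3 CSE libraries (22.9 to 24.5 CPM) all lie above the 3 PBS libraries (17.0 to 20.9 CPM).

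Mt1 (chromosome 8, 94179082 to 94180327, plus strand) and Mt2 (chromosome 8, 94172664 to 94173568, plus strand) lie 5513 bases apart. Mt1 had 104, 73.0 and 85.5 CPM in PBS replicates 1 to 3 and 73.6, 87.3 and 98.5 CPM in the CSE replicates. The groups overlapped fully, and the highest and the lowest library were both PBS. Its log2 fold change, CSE over PBS, was −0.01 ± 0.14 (SE, edgeR adjusted p = 0.973), with a 95% interval of −0.34 to 0.32. On a linear scale that interval runs from 0.791-fold to 1.25-fold, so rises above 1.25-fold lie outside it.

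In CPM, Mt2 had 26.7, 21.7 and 25.0 in PBS and 15.3, 22.1 and 24.3 CPM in CSE. CSE replicate 1 was the low library, and the other CSE libraries lay within the PBS range. The log2 fold change was −0.24 ± 0.15 (edgeR adjusted p = 0.368), with a 95% interval of −0.57 to 0.10, or 0.672-fold to 1.07-fold. Without CSE replicate 1 it was −0.08 (edgeR adjusted p = 0.76).

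On the TPM scale, which divides by effective transcript length, the Mt2 groups stood apart, with 130.2, 122 and 143 TPM in PBS and 82.9, 109 and 106 TPM in CSE. A test of log2(TPM + 1) gave −0.41 and stayed short of the threshold (limma adjusted p = 0.056), and the median of all genes on that scale was −0.06. The TPM groups did not overlap in 27.2% of all tested genes. The effective length of Mt2 lay between 264 and 314 bases and varied between libraries of one group (302, 264 and 305 bases in PBS, 276, 295 and 314 in CSE). Its part in the TPM difference was not tested.

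Both metallothionein genes were well expressed without smoke extract. Mt1 stood at 397 ± 38.5 TPM in PBS and 366 ± 20.4 TPM in CSE (SD, n = 3), between rank 350 and rank 437 of all genes by TPM in the single libraries. Mt2 stood at 132 ± 10.5 TPM and 99.5 ± 14.5 TPM. The brain and stratified epithelium members of the cluster were at the floor: Mt3 had 0 to 2 counts in a library and Mt4 had 0 in every library.

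The ratio of Mt1 to Mt2 within a library does not depend on depth or scaling. By estimated counts it was 3.90, 3.36 and 3.42 in PBS and 4.83, 3.95 and 4.05 in CSE. All CSE ratios lay above all PBS ratios. The mean went from 3.56 ± 0.293 to 4.28 ± 0.477 (SD, n = 3; two-sided exact permutation p = 0.1, the smallest that 3 against 3 libraries allow). By TPM the ratio was 3.02 ± 0.302 in PBS and 3.71 ± 0.381 in CSE, again without overlap (exact permutation p = 0.1). This ratio was chosen after its values were seen. The exact permutation test cannot reach 0.05 with 3 against 3 libraries.

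**Figure D2:**
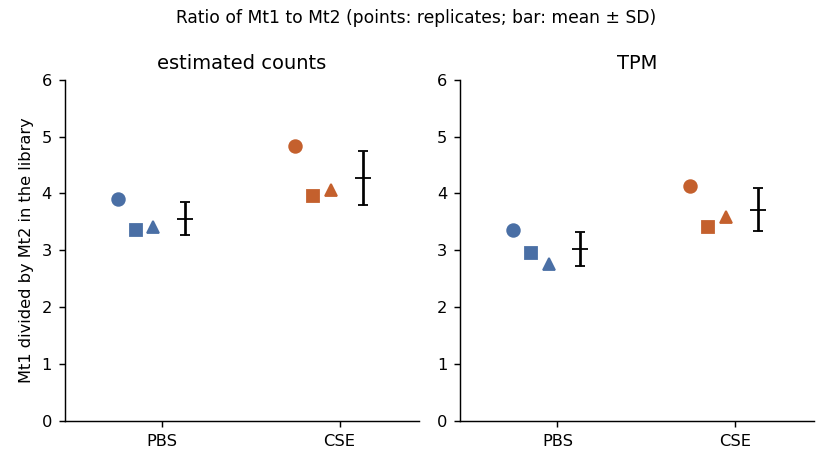
Mt1 divided by Mt2 in each library, from estimated counts (left) and TPM (right), with marker shapes for the replicate number and bars for the mean ± SD of 3 libraries. The CSE points, 3.95 to 4.83 by counts, lie above the PBS points, 3.36 to 3.90.

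Many genes had a profile over the libraries closer to that of Mt1 than Mt2 had. Likeness was measured as the root mean square difference of log2 CPM, centred on each gene's mean over the 6 libraries, among 9465 genes that average at least 5 TPM. The closest to Mt1 were H3f3a (0.0368), Nfil3 (0.0454), Cox7a2l (0.0466), Serf2 (0.0497) and Exoc6 (0.0511). Close to Mt2 were S100a13 (0.0809), Chchd10 (0.0845), Tmsb4x (0.0875) and Cbwd1 (0.10). None of the 9 genes named here was called changed by edgeR (adjusted p from 0.265 for S100a13 to 0.997 for Nfil3). They were picked for closeness to Mt1 and Mt2, which were not called, so this was largely set by the choice. Mt2 itself came at place 1625 in likeness to Mt1, with a difference of 0.172. In the other direction, with the same difference, Mt1 came at place 118 in likeness to Mt2. With 6 libraries, this describes the profiles and gives no test of them.

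Mtf1 (chromosome 4, 124802104 to 124849800, plus strand), the sensor of the response, had 28.9, 23.9 and 31.7 CPM in PBS and 26.4, 27.1 and 28.6 CPM in CSE. The CSE libraries all fell inside the PBS range. Its log2 fold change was −0.04 ± 0.11 (edgeR adjusted p = 0.856; 95% interval −0.28 to 0.20). MTF1 is regulated largely by zinc binding and entry into the nucleus, which a transcript level does not show.

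The exporters come next. Slc30a1 (chromosome 1, 191906767 to 191913247, plus strand) encodes ZnT1, which exports zinc across the plasma membrane. It had 6.20, 6.84 and 7.21 CPM in PBS and 6.88, 7.65 and 8.20 CPM in CSE, on 82 to 183 counts a library. The lowest CSE library lay within the PBS range. The log2 fold change was 0.17 ± 0.14 (edgeR adjusted p = 0.493), with a 95% interval of −0.14 to 0.47, up to 1.39-fold.

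Slc30a4 (chromosome 2, 122681233 to 122702663, minus strand) encodes ZnT4, which loads zinc into endosomes and lysosomes. Its libraries had 17.0, 19.1 and 20.9 CPM in PBS and 24.5, 22.9 and 23.4 CPM in CSE. Every CSE library was above every PBS library, which was the case, in either direction, for 31.2% of all tested genes. The log2 fold change was 0.31 ± 0.10, or 1.24-fold (edgeR adjusted p = 0.0738; 95% interval 0.08 to 0.53). It passed the threshold once the trend with GC and length was removed (0.34, edgeR adjusted p = 0.0207), and by TPM its groups overlapped.

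Slc30a5 (chromosome 13, 100802648 to 100833427, minus strand) encodes ZnT5, which pairs with ZnT6 to bring zinc into the secretory pathway. It had 103, 91.8 and 95.7 CPM in PBS and 96.5, 97.8 and 103 CPM in CSE. Its groups overlapped, at 0.04 ± 0.07 on the log2 scale (edgeR adjusted p = 0.795; 95% interval −0.12 to 0.19).

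Among the importers, Slc39a10 (chromosome 1, 46807544 to 46892852, minus strand) had the narrowest interval of the 10 genes. ZIP10, its product, takes zinc up at the plasma membrane, and its gene is the one that MTF1 lowers in zinc excess. Slc39a10 had 99.0, 105 and 106 CPM in PBS and 104, 102 and 104 CPM in CSE. The CSE libraries lay inside the PBS range, and the 95% interval of the change ran from 0.906-fold to 1.1-fold.

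Slc39a14 (chromosome 14, 70303469 to 70351425, minus strand) encodes ZIP14, a carrier of zinc, manganese and iron. Its level was 57.2, 52.7 and 61.5 CPM in PBS and 54.2, 56.4 and 53.2 CPM in CSE. The groups overlapped, with a log2 fold change of −0.06 ± 0.08 (edgeR adjusted p = 0.661; 95% interval −0.24 to 0.11). Slc39a8 (chromosome 3, 135825279 to 135888572, plus strand) encodes ZIP8, its closest relative and a cadmium importer, and had 6.88, 7.38 and 6.75 CPM in PBS and 9.37, 7.36 and 7.11 CPM in CSE. CSE replicate 1 was the high library, and the other CSE libraries lay within the PBS range. The log2 fold change of Slc39a8 was 0.17 ± 0.15 (edgeR adjusted p = 0.519; 95% interval −0.16 to 0.49), and without CSE replicate 1 it was 0.05.

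Slc39a1 (chromosome 3, 90248172 to 90253612, plus strand) encodes ZIP1, a widely expressed plasma membrane importer. It had 17.2, 17.3 and 23.2 CPM in PBS and 16.7, 17.7 and 18.2 CPM in CSE. PBS replicate 3 stood above the other 5 libraries. The change was −0.13 ± 0.13 (edgeR adjusted p = 0.554), and without PBS replicate 3 it was 0.03. Of the 31-base words of its main transcript, 27.7% also occur in transcripts of other genes, with the pseudogene Slc39a1-ps first among them, so its counts are less certain than those of the other 9 genes, where at most 1.51% of words are shared.

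By TPM, a level per transcript length, the genes ranked over the 6 libraries from Mt1 (mean 381 TPM) through Mt2 (116), Slc30a5 (65.1), Slc39a10 (30.8), Slc39a14 (22.1), Slc39a1 (13.0), Mtf1 (7.57), Slc30a4 (6.15) and Slc39a8 (3.73) to Slc30a1 (2.15). Each neighbour in this order was separated from the next by the ranges of the 6 libraries, except Mtf1 (6.34 to 9.95 TPM) and Slc30a4 (4.83 to 7.08 TPM), whose ranges overlapped. Mt1 was thus the highest of these transcripts and the gene of the main plasma membrane exporter the lowest.

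**Figure D3:**
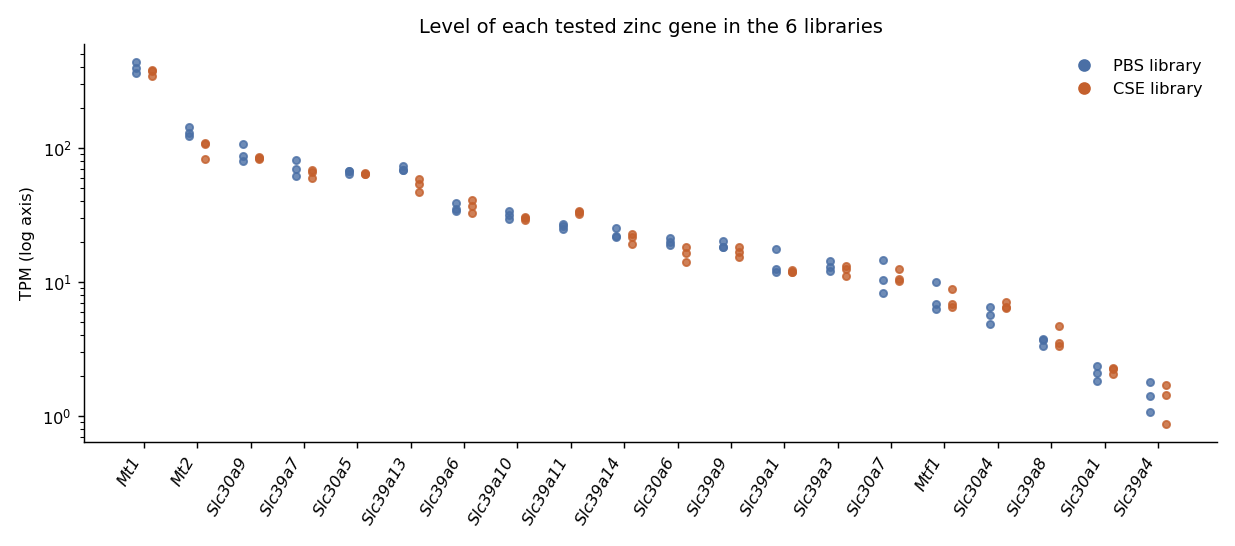
TPM on a log axis of every tested metallothionein, zinc transporter and Mtf1, sorted by mean, with 3 PBS points in blue and 3 CSE points in orange for each gene. Levels run from Mt1 at 343 to 436 TPM to Slc39a4 at 0.873 to 1.78 TPM.

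The rest of the zinc transporters gave 2 calls, in opposite directions, both in the SLC39 family. Over both families, 2 of 17 tested genes were called, a share near the 12.0% of all tested genes. Of 14 Slc39 genes, 11 were tested, with 1 higher, 1 lower and 9 not called. Of 10 Slc30 genes, 6 were tested and 0 called by edgeR (1 at an unadjusted p under 0.05, and 0 by DESeq2 or limma-voom). The median log2 fold change was 0.03 over the tested Slc30 genes and 0.000036 over the tested Slc39 genes, beside 0.0056 over all genes. The 7 untested transporters had at most 16 counts in any library.

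Slc39a11, which encodes the distant family member ZIP11, had 45.0, 38.4 and 39.2 CPM in PBS and 54.7, 53.9 and 55.3 CPM in CSE. All CSE libraries were above all PBS libraries. It rose by 0.42 ± 0.08 on the log2 scale (edgeR adjusted p = 0.00491), from 26.1 ± 1.11 to 33.2 ± 0.915 TPM, and was called under every alternative tried (adjusted p up to 0.044).

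Slc39a13, which encodes ZIP13, a carrier that releases zinc from vesicles of the early secretory pathway, had 68.7, 70.9 and 64.1 CPM in PBS and 55.3, 54.3 and 50.7 CPM in CSE. The groups did not overlap. Slc39a13 fell by 0.35 ± 0.08 (edgeR adjusted p = 0.00954), from 70.2 ± 2.86 to 53.2 ± 5.61 TPM, and lost its call without CSE replicate 3 (−0.31, edgeR adjusted p = 0.0688). In the same libraries the summed TPM of a list of 7 fibroblast markers, nearly all of it decorin (Dcn), ranged over 872 to 1133 in PBS and 482 to 548 in CSE, and of its 4 tested genes 1 was higher and 2 lower. For 8 epithelial markers the sum ranged over 1300.3 to 1414 in PBS and 720.1 to 813 in CSE, and 4 of 6 tested were lower. Of all tested genes, 4.64% were higher and 7.36% lower. The part of these markers in the change of Slc39a13 was not tested.

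The intestinal importer gene Slc39a4 had 17, 32 and 22 counts in PBS and 34, 59 and 26 in CSE. In CPM its groups overlapped only by CSE replicate 3, and the log2 fold change of 0.71 ± 0.30 missed the threshold (edgeR adjusted p = 0.159). Its TPM overlapped, at 1.42 ± 0.356 and 1.34 ± 0.424. The 3 other tested exporters were not called: Slc30a6 was at −0.10 ± 0.11, Slc30a7 at 0.02 ± 0.09 and Slc30a9 at −0.03 ± 0.07.

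**Figure D4:**
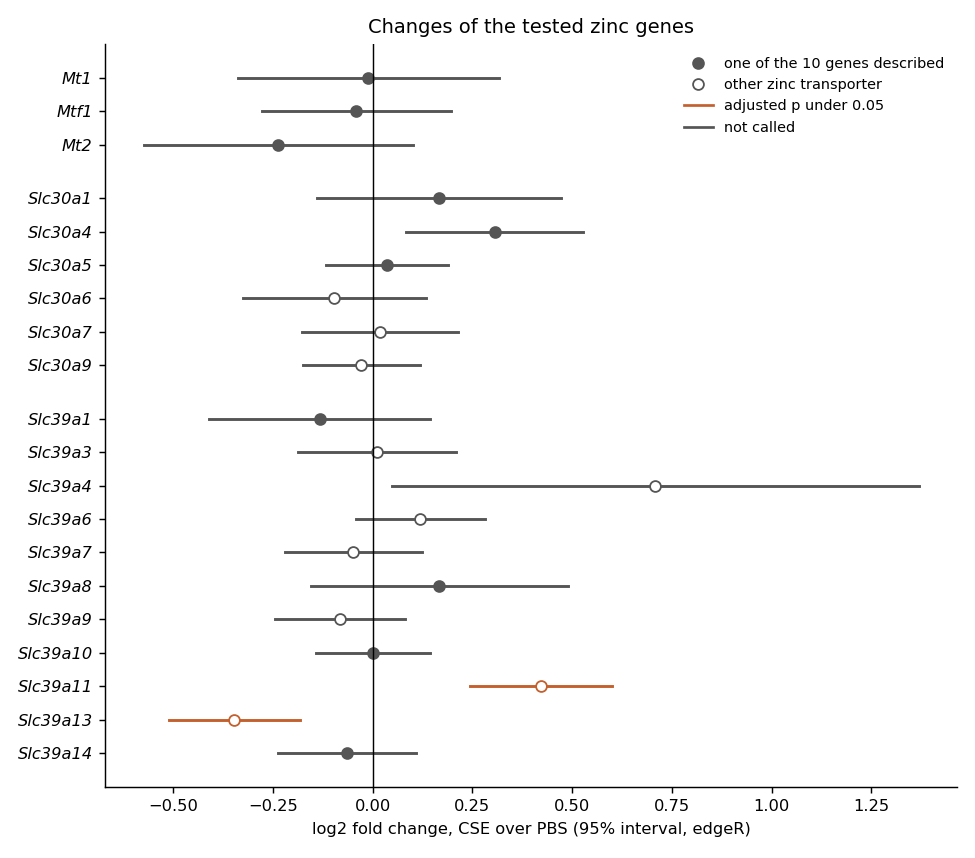
Log2 fold change, CSE over PBS, with its 95% interval from edgeR, for the 20 tested zinc genes in the 3 classes, where filled points are the 10 genes described and open points the other transporters. Intervals drawn in orange belong to the called genes, Slc39a11 (0.42) and Slc39a13 (−0.35).

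Metallothionein genes also answer signals other than zinc, so genes of those signals were read in the same libraries. In a list of heat shock genes and acute metal stress genes, 4 of 12 rose: the cystine transporter Slc7a11 (1.72 ± 0.09), the glutathione synthesis genes Gclm (1.33 ± 0.08) and Gclc (0.46 ± 0.07) and the sulfiredoxin Srxn1 (0.72 ± 0.09), each with an edgeR adjusted p of at most 0.000848. These 4 are known NRF2 targets, and their rise was known before the list was written. The count is therefore no test of the list. Of all tested genes, 4.64% rose. The 8 not called were Hmox1 and the heat shock genes Hsf1, Hspa1a, Hspa1b, Hsph1, Dnajb1, Hspb1 and Bag3, between −0.21 and 0.55 on the log2 scale. Cadmium is known to raise Hmox1 and Hspa1a. Hspa1a had 18, 35 and 45 counts in PBS and 26, 64 and 56 in CSE, and its log2 fold change of 0.55 ± 0.27 missed the threshold (edgeR adjusted p = 0.221). Its near-identical copy Hspa1b was at −0.21 ± 0.10 (edgeR adjusted p = 0.225), and reads may be split between the pair, so both values are uncertain. Hmox1, the heme oxygenase gene, was at 103 ± 5.71 TPM in the PBS group and 111 ± 5.97 TPM with extract, where the groups overlapped. In CPM they did not, with 83.7 to 92.3 in PBS and 98.9 to 103 in CSE. The CPM groups did not overlap in 31.2% of all tested genes. The log2 fold change of Hmox1 was 0.20 ± 0.07 (edgeR adjusted p = 0.0848). The median change over the 12 genes was 0.20. It includes the 4 genes listed with their rise known, so it is not compared with all genes.

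Glucocorticoids induce Mt1 and Mt2 as well, so genes of the glucocorticoid response were read too. Of 10 tested genes, 2 rose and 2 fell, with a median of −0.12, where 4.64% of all tested genes rose and 7.36% fell. The kinase gene Sgk1 rose by 0.96 ± 0.15 and the transcription factor gene Cebpd by 0.45 ± 0.08. The phosphatase gene Dusp1 fell by 0.77 ± 0.13 and the receptor co-chaperone gene Fkbp5 fell by 0.34 ± 0.07, each of the 4 with an edgeR adjusted p of at most 0.00929. Fkbp5 was not called without CSE replicate 2 (adjusted p = 0.0714), and Cebpd was not called by limma on log2(TPM + 1) (adjusted p = 0.052).

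The transcript estimates give the forms in which these genes were expressed. They are model shares of a gene's TPM, described here with no test. Mt1 came almost wholly from its 3-exon transcript (98.2% to 99.0% in each library). The 3-exon Mt2-201 held 68.7% to 96.8% of Mt2, and the shorter Mt2-202, which is annotated to start inside the first coding exon past the start codon, held 12.9%, 4.13% and 31.3% in PBS and 11.5%, 11.0% and 3.20% in CSE. That share varied more within PBS than between the groups.

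For Slc30a5, the most abundant entry was Slc30a5-203, annotated as a target of nonsense-mediated decay, with 52.4% to 63.2% of the gene's TPM, and the full coding transcript Slc30a5-201 held 31.4% to 43.5%. The ranges of the groups overlapped for both. Mtf1 came mostly from Mtf1-201 (47.7% to 83.2%), and a retained-intron transcript, Mtf1-204, held 16.9% to 42.5%. Slc30a1 and Slc39a1 were each assigned to 1 transcript in full.

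Slc39a14 is known for a pair of mutually exclusive exons that give ZIP14 forms of different metal affinity. The coding transcripts of full length differed in which of these exons they contain. Slc39a14-202, the coding transcript with the downstream exon, was at 16.3, 15.8 and 19.9 TPM without extract and at 16.1, 16.5 and 14.7 TPM with it. The transcripts with the upstream exon, Slc39a14-201 and Slc39a14-210, summed to 0.257, 0.12 and 0 TPM without extract and to 0.183, 0.142 and 0 TPM with it. By these whole-transcript estimates, the downstream-exon form held 98.4% to 100% of the TPM of both forms in every library, with and without extract. Slc39a14-202 is 4926 bases long, and Slc39a14-201 and Slc39a14-210 are 2098 and 2075. Reads on the exons themselves were not counted.

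Slc39a8 was divided among 5 transcripts, of which 3 share a coding sequence and have different first exons. Slc39a8-201 held 40.4% to 74.0%, Slc39a8-206 held 0% to 41.6% and Slc39a8-205 held 0% to 20%. For each of these 3 the groups overlapped. The retained-intron transcript Slc39a8-204 held 14.2%, 16.9% and 19.4% in PBS and 9.36%, 10.8% and 7.55% in CSE, without overlap, on 7.51 to 21.9 estimated counts a library, and Slc39a8-203, another retained-intron transcript, held 1.08% to 6.68%. The whole gene had 91 to 176 counts a library. How often transcript shares fail to overlap was not counted. By gene TPM, the groups did not overlap in 27.2% of all tested genes.

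**Figure D5:**
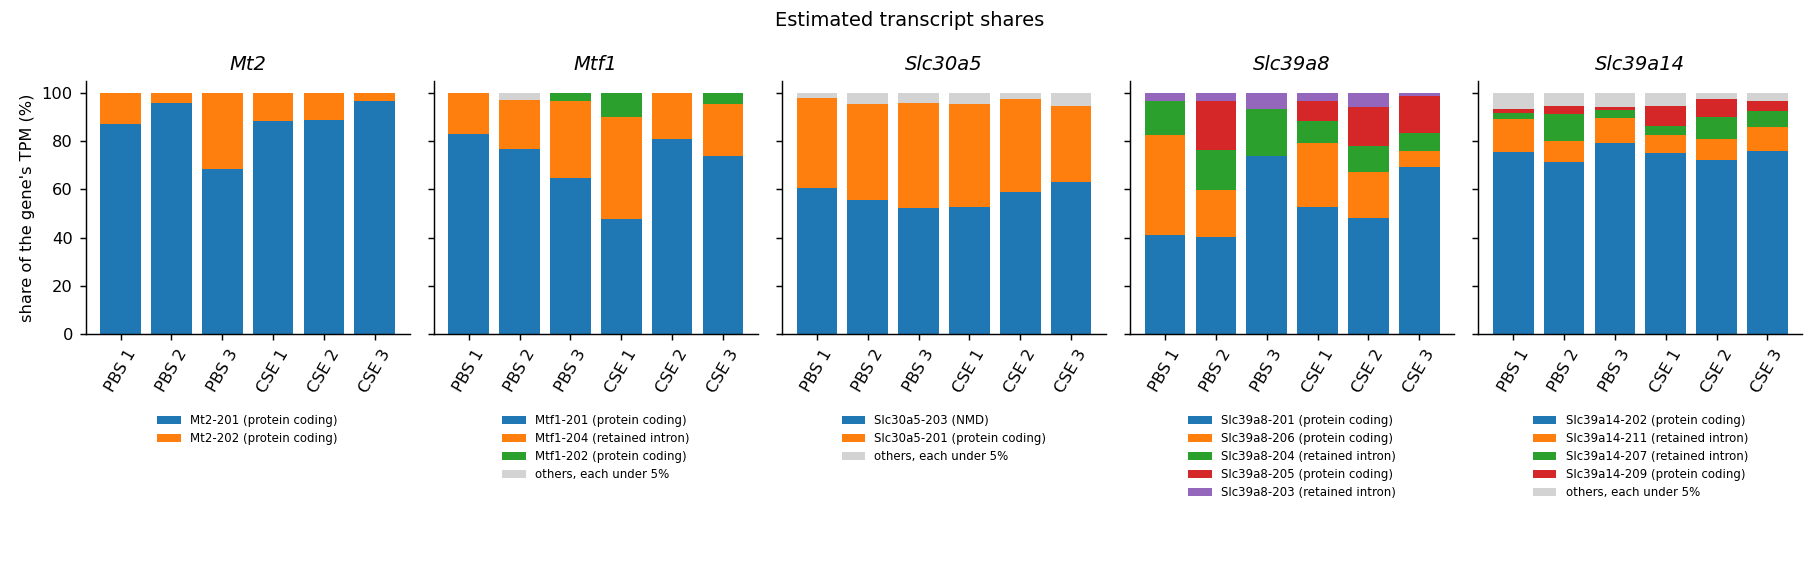
Estimated share of the gene's TPM (percent) held by each annotated transcript in each of the 6 libraries, for 5 of the 10 genes. Slc39a14-202 holds 71.4% to 79.2% in every library, whereas Mt2-202 and the Slc39a8 transcripts vary between libraries of one group.

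Library totals lay between 12093009 and 24050167 estimated counts, and 3 counts equal 0.125 to 0.248 CPM, far below each of the 10 genes. Of 8 epithelial markers, 6 were expressed enough to be tested, with the keratin gene Krt19 highest, Epcam was low (1.42 to 2.63 TPM), and Krt18 and Cldn4 had at most 8 and 1 counts in a library. The 6 endothelial markers summed to 2.02 to 2.65 TPM in PBS and 1.06 to 1.54 TPM in CSE, with 2 tested and 0 called by edgeR, DESeq2 or limma-voom (1 at an unadjusted p under 0.05). Most of that sum was Pecam1, with 12 to 51 counts a library, while Cdh5 had 0 in every library. The 7 leukocyte markers summed to 3.23 to 6.38 TPM in PBS and 3.01 to 5.46 TPM in CSE. Most of that sum was Cd68, with 17 to 43 counts a library, and Lyz2 had 5 to 18. These 2 were tested, with 0 called by edgeR, DESeq2 or limma-voom. The macrophage marker Adgre1 had 0 counts in every library. The labels do not state whether libraries within a group are separate cultures; p-values then measure only how these libraries vary, and that variation may be technical. In bulk RNA, fewer cells with a transcript and less of it per cell cannot be told apart.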

How the data were processed

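The authors deposited, per library, estimated counts, effective lengths and TPM for 118489 transcripts, with kallisto's column names per the file headers. Per the submitters' processing notes, kallisto 0.46.2, fastp 0.20.1, FastQC 0.12.1, DESeq2 1.40.2 and GRCm38 were used; for the index, trimming and strand, settings were not given in the sources used here. The extraction protocol in the labels speaks of tissue, the sample labels of cells. TPM in the deposited files sums to the same total in each library, which removes depth.

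Transcripts were matched by versioned identifier to GENCODE vM21 (116816 matched, 98.6%), and estimated counts and TPM were summed per gene. Summed counts were rounded, filtered with filterByExpr (minimum count 10) and scaled by TMM. The 2 groups were compared with the quasi-likelihood test of edgeR (two-sided), treatment as the only factor, Benjamini-Hochberg adjustment over all tested genes and a threshold of 0.05. Intervals are 95% t intervals from the fit. The procedure was tested on simulated counts with 200 changed genes.

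The 10 genes, the 11 other gene lists and the motifs were chosen with earlier results of these data known. All 10 genes are named; from other lists, called genes and up to 3 of smallest p, for the marker lists only levels. The 5 genes nearest to Mt1 and to Mt2 leave out gene models and pseudogenes, and 1 of them is not reported here; those named as chosen after their values were seen fall outside the rule. There were 17 alternatives: RLE scaling, no scaling factors, limma-voom, DESeq2, dropping the filter, a mean of at least 5 CPM, an effective-length offset, log2(TPM + 1) or log2(TPM + 0.1) tested by limma in genes of at least 1 TPM, the replicate number as a block, loess removal of GC and length trends (span 0.5), and each library left out. Versions: edgeR 4.0.16, DESeq2 1.42.0 and limma 3.58.1 ran under R 4.3.3; scipy 1.17.1, matplotlib 3.10.9 and pandas 2.3.3 ran under Python 3.11.15.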

Additional observations from a re-analysis of the deposited data

How the results depend on the processing

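Of the 10 genes, 0 were called under 16 of the 17 alternatives, each library left out included (lowest and highest count 0), and 1, Slc30a4, was called once the trend with GC and length was removed. Changes near 0 turned sign. Mt1 was at 0.0019 with limma-voom and between −0.1282 and 0.1345 with 1 library left out. Mtf1 was at 0.0658 without the GC and length trend and between −0.1521 and 0.0549 with 1 library left out. Slc30a5 was at −0.0404 and −0.041 on log2(TPM + 1) and log2(TPM + 0.1), at −0.013 without the trend and between −0.0032 and 0.0865 with 1 library left out. Slc39a1 lay between −0.2132 and 0.0283 with 1 library left out. Slc39a10 was at −0.0011 with RLE, −0.0149 with library size, −0.0014 with DESeq2, −0.0003 with limma-voom, −0.0103 at a mean of at least 5 CPM, −0.077 and −0.0792 on the TPM scales and between −0.0228 and 0.0189 with 1 library left out. Mt2, Slc30a1, Slc30a4, Slc39a8 and Slc39a14 kept their sign under all 17. The count of all genes called, 1614, became 1029 and 1022 on the TPM scales and 1056, 1074, 939 and 883 without PBS replicate 3 and CSE replicates 1, 2 and 3. It was split as 913 higher and 886 lower without the trend and 960 higher and 1017 lower without PBS replicate 1, against 624 and 990. Of the other transporters, 1 rather than 2 was called without CSE replicate 3. Why these values moved was not tested. With the replicate number as a block (replicate block), 0 of the 10 and 1057 of all genes were called. Libraries of the same number did not deviate together (correlations −0.124, 0.006 and −0.059 across genes), so the numbers were not taken to pair libraries.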

Other observations

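Genes of copper handling and other metal transporters were read in the same way. Of 14 tested copper genes, 2 rose and 12 were not called, with a median log2 fold change of 0.04. Of all tested genes, 12.0% were called and 4.64% rose. Both that rose encode metalloreductases of the STEAP family, which reduce iron and copper at membranes. Steap3, of the same family, was not called (0.08 ± 0.22, edgeR adjusted p = 0.855). Steap4 had 4.91, 5.10 and 3.84 CPM in PBS and 9.70, 7.53 and 8.62 CPM in CSE, and rose by 0.89 ± 0.17 on the log2 scale (edgeR adjusted p = 0.00357). Steap2 had 37.4, 39.8 and 36.8 CPM in PBS and 56.4, 51.8 and 48.6 CPM in CSE, and rose by 0.46 ± 0.08 (edgeR adjusted p = 0.00295). Neither gene's groups overlapped, and both were called under every one of the 17 alternatives. Of 8 other divalent metal transporters, 0 were called by edgeR, DESeq2 or limma-voom, with 2 at an unadjusted p under 0.05: the iron exporter Slc40a1 (0.37 ± 0.13, edgeR adjusted p = 0.0991) and the iron and cadmium importer Slc11a2 (0.17 ± 0.07, edgeR adjusted p = 0.138).

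Tested genes were also sorted by the number of metal response element cores in their RefSeq promoter window. Of 101 genes with 4 or more matches, 7 were higher and 10 lower in CSE, with a median log2 fold change of −0.03. Among 6102 genes with no match, 267 were higher and 376 lower, with a median of 0.0073. The share called was 10.5% with no match, 13.5%, 14.2% and 16.4% with 1, 2 and 3 matches, and 16.8% with 4 or more. Over all 10178 tested genes with a window it was 11.9%. With 1, 2 and 3 matches, 145, 60 and 17 genes were higher and 221, 79 and 30 lower, so lower calls outnumbered higher ones throughout. The GC content of the windows was not taken into account. These counts are a description, with no test.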
